A study of Mus musculus with 2 samples.

Results

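The cytosolic ribosomal protein genes encode the proteins of the large and small subunits of the cytoplasmic ribosome. They were taken from the count table as the protein-coding genes whose symbols start with Rpl or Rps followed by a digit, together with Rplp0, Rplp1, Rplp2 and Rpsa. S6 kinase genes, symbols holding -ps or -rs and binding-protein genes ending in bp1 were left out. The rule gave 85 genes of 39017 in the table, 52 of the large subunit and 33 of the small subunit. A gene was called measured when it had at least 20 counts summed over both libraries, which held for 83 of the 85 genes and for 13880 genes of the whole table.

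RNA was sequenced from LSK cells, the Lin- Sca-1+ c-Kit+ fraction of mouse bone marrow that contains haematopoietic stem cells and multipotent progenitors. One library was made from miR-146a-/- LSK cells pooled from 6 mice, and the other from WT LSK cells pooled from 12 mice. All animals were C57BL/6J and 10 to 14 weeks old, and the labels name no further allele or agent in either genotype. Each genotype had 1 library of 1 pool, so no value has a replicate check and every comparison is between the libraries, not the genotypes. The row of the microRNA gene, Mir146, had 0 counts in both libraries and gave no check of the labels.

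Each ribosome carries one copy of nearly every ribosomal protein, and the messenger RNAs of these proteins are among the most abundant in growing cells. Their messages begin with a terminal oligopyrimidine (TOP) tract, a run of pyrimidines at the 5′ end through which mTORC1 signalling controls their translation together. In haematopoiesis, loss of one copy of certain ribosomal protein genes causes Diamond-Blackfan anaemia, a human failure of red cell production. The microRNA miR-146a is induced by NF-kB and damps inflammatory signalling by repressing Traf6 and Irak1.

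Total counts were 22231389 in the miR-146a-/- library and 35069136 in the WT library. Protein-coding genes held 51.5% of miR-146a-/- counts and 81.4% of WT counts, while Gm42418, a non-coding gene with ribosomal RNA sequence, held 27.2% of all counts in miR-146a-/- and 2.13% in WT. All 8 markers of LSK cells were measured, among them Kit, the stem cell factor receptor, at a normalised level (CPM) of 728 in miR-146a-/- and 558 in WT. Of 12 markers of mature blood lineages, 5 were measured, and the summed level of all 12 was 313 CPM in miR-146a-/- and 274 in WT. Most of that sum was Ptprc, a marker of nearly all white blood cells, at 248 CPM in miR-146a-/- and 228 in WT. Itgam, a myeloid marker, was at 56.8 CPM in miR-146a-/- and 35.9 in WT, and Cd4 at 4.07 in miR-146a-/- and 1.84 in WT. Jchain, a plasma cell marker, was at 2.27 CPM in miR-146a-/- and 5.81 in WT, and Cd3e and Cd8a had 0 counts in both libraries. The part of these markers in the results below was not tested. Normalised CPM are counts scaled by TMM to libraries of 1000000 counts, and each log2 ratio below is that of miR-146a-/- over WT with its exact 95% counting interval. Intervals cover counting error only.

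Cytosolic ribosomal protein messages were modestly lower in the miR-146a-/- library as a group, with a spread between single genes. Those with at least 200 summed counts had log2 ratios from -0.73 (Rps27l) to 0.45 (Rps26). The median log2 ratio of the 83 measured genes was -0.23, a 0.851-fold level, with quartiles of -0.37 and -0.04, against -0.01 over all measured genes and -0.03 over the 12313 measured protein-coding genes. Ratios were negative for 63 genes and positive for 20, so 75.9% were negative, against 51.2% of all measured genes. Among the highest 10% of protein-coding genes by level, a class that held most of the ribosomal protein genes, the 1158 other genes had a median of 0.14. The part of level in the result was not tested.

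No ribosomal protein gene had an interval wholly beyond 1.5-fold, 0 lower and 0 higher, where 1.53% of all measured genes were lower and 5.35% higher by this rule. At 1.2-fold, 30 of the 83 were lower and 5 higher, against a background of 9.99% lower and 12.7% higher. The interval lay wholly below 0 for 61 genes and wholly above 0 for 16, where 29.0% and 28.0% of all measured genes did so, and it covered 0 for 6. These genes have many counts and so short intervals, with a median half-width of 0.045 on the log2 scale, which raises the number that exclude 0 at any given shift.

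The lower level was larger in the small subunit. Its 33 genes had a median log2 ratio of -0.32 with 28 negative and 5 positive, and the 50 measured genes of the large subunit had a median of -0.17 with 35 negative and 15 positive. At 1.2-fold, 17 small subunit genes were lower and 2 higher, and 13 large subunit genes were lower and 3 higher. The median of the large subunit minus that of the small subunit was 0.15, a difference that does not depend on how the libraries were scaled. It was 0.11 over the 51 members that no annotated gene overlaps on either strand. As genes of 1 library are not replicates, this difference has no error between samples.

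Summed over all members, ribosomal protein genes held 4.32% of protein-coding counts in miR-146a-/- cells (95% Clopper-Pearson interval 4.30 to 4.33%) and 5.30% in WT cells (5.29 to 5.31%). The large subunit held 2.57% of protein-coding counts in miR-146a-/- and 3.07% in WT, and the small subunit 1.75% in miR-146a-/- and 2.23% in WT. Within the ribosomal protein counts, the large subunit took 59.5% in miR-146a-/- (59.3 to 59.6%) and 58.0% in WT (57.9 to 58.0%). Of the 100 protein-coding genes with the most counts, 14 were ribosomal protein genes in the miR-146a-/- library and 26 in the WT library. Comparing shares of protein-coding counts between libraries amounts to scaling by protein-coding totals, under which all measured genes had a median log2 ratio of -0.17. The large subunit's share of ribosomal protein counts and the ranks by counts are taken within each library.

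The direction of single genes near 0 depends on the scaling. With total counts in place of TMM, the median of the ribosomal protein genes was -1.05, with 82 of 83 negative, and that over all measured genes was -0.83. With protein-coding totals the ribosomal protein genes had a median of -0.39, with 72 of 83 negative, and all measured genes -0.17. Ribosomal protein gene ratios given as positive below are therefore positive relative to TMM scaling, and by total counts each of them except that of Rpl3l was negative.

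**Figure D1:**
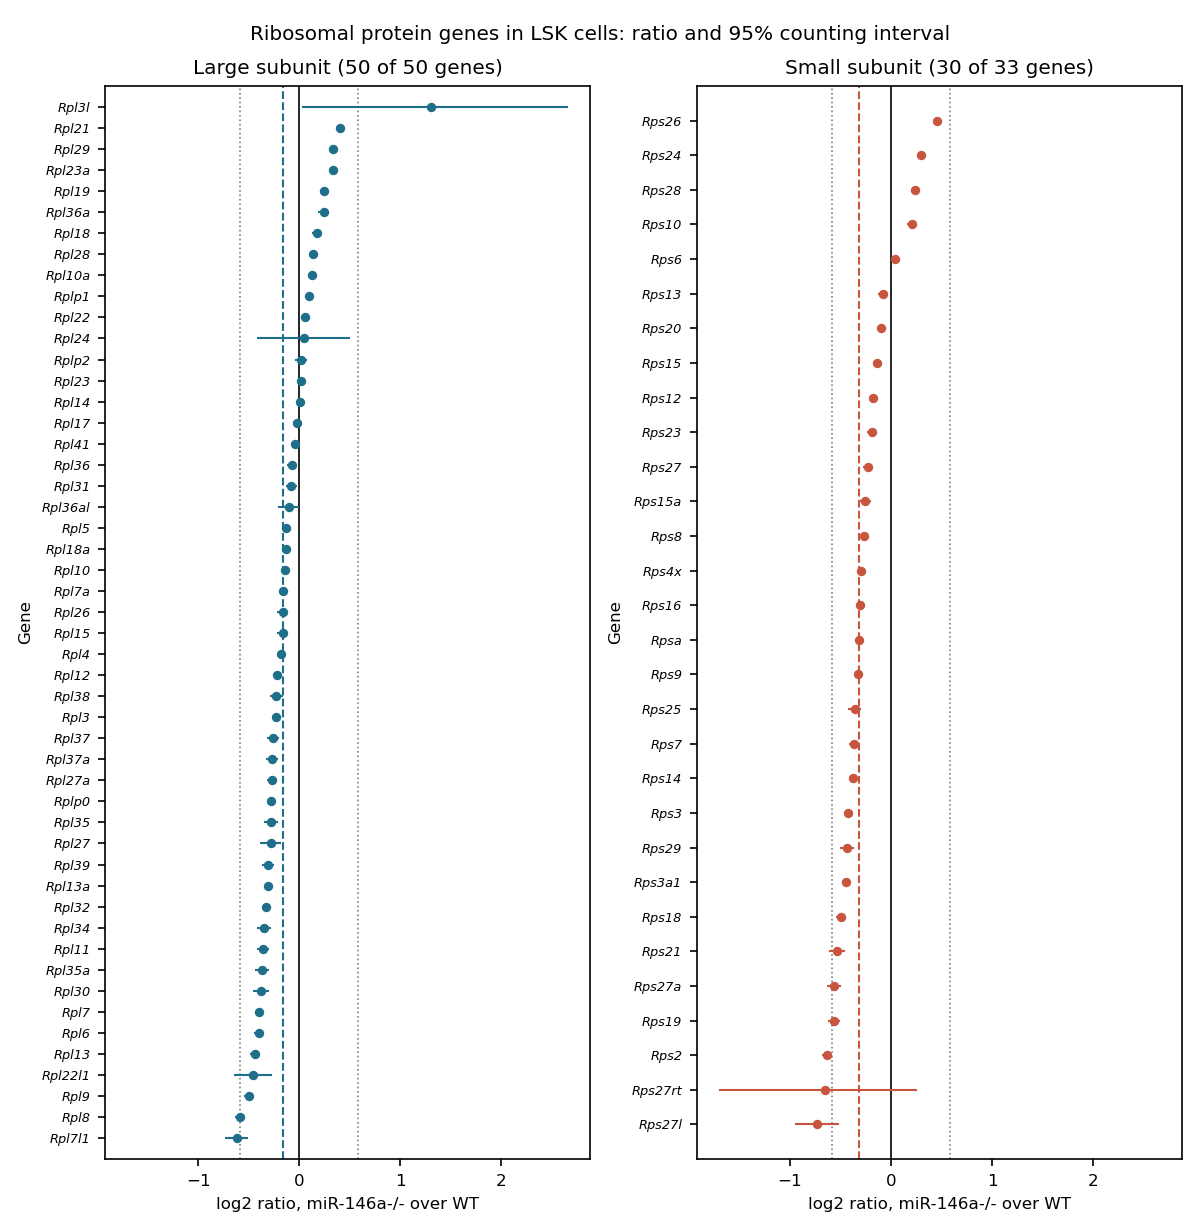
Log2 ratio of miR-146a-/- over WT for measured genes of the large subunit (left panel, 50 of 50 genes drawn) and small subunit (right panel, 30 of 33 genes drawn), with 95% counting intervals as horizontal bars, dotted lines at 1.5-fold and a dashed line at the median of each whole subunit (-0.17 and -0.32). Most points lie left of 0 in both panels, and no interval lies wholly beyond a dotted line.

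Promoter sequences are shown because the TOP tract at the start is what these messages are known to share, and the choice of genes did not use it. RefSeq promoters (GRCm38.p6) were found for 65 of the 85 genes. The windows below run from 60 bases before the annotated start to 20 bases at and after it, on the strand of the gene. They belong to the members with the lowest and the highest log2 ratios in each subunit among those with 1 RefSeq start and a match on the strand of the gene, paralogs left out. Capitals mark CTTTCC or CTTTTC within 20 bases of the start, and CCGGAAG, the core of an ETS factor site.
Rpl13a: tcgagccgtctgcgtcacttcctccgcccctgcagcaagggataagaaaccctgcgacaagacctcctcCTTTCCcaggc
Rpl35: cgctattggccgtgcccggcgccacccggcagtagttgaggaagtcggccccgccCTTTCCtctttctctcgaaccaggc
Rpl28: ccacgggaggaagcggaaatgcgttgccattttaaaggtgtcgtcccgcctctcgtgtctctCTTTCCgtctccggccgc
Rpl18: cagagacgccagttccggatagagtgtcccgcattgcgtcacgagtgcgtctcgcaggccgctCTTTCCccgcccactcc
Rps27: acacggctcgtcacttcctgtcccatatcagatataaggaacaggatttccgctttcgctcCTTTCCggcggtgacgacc
Rps12: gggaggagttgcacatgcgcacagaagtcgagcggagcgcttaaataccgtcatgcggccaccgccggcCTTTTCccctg
Rps10: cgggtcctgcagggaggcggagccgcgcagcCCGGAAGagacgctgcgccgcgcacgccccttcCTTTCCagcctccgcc
The windows lie at chr7:45128726-45128805 (Rpl13a, minus strand), chr2:39005112-39005191 (Rpl35, minus), chr7:4792905-4792984 (Rpl28, plus), chr7:45718011-45718090 (Rpl18, plus), chr3:90213629-90213708 (Rps27, minus), chr10:23787190-23787269 (Rps12, minus) and chr17:27635225-27635304 (Rps10, minus).

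Among genes of the promoter table, CTTTCC or CTTTTC on either strand lay within 20 bases of the start in 17 of the 65 ribosomal protein genes (26.2%), against 7.30% of 27025 genes. CCGGAAG occurred anywhere in the window of 250 bases before to 50 after the start in 26 of 65 (40%), against 9.93% of all genes. AAGATGGC, letters of the YY1 site, occurred in 6 of 65 (9.23%) against 3.19%, and TATAAA in 7 of 65 (10.8%) against 15.7%. Ribosomal protein genes with the pyrimidine match had a median log2 ratio of -0.22 (16 measured genes) and those without it -0.26 (47 measured genes). With CCGGAAG the median was -0.28 (25 genes) and without it -0.19 (38 genes). Among the printed windows, those of Rpl18 and Rps10 belong to genes above 0 (0.17 and 0.20), and those of Rpl13a and Rpl35 to genes below 0 (-0.31 and -0.28), all with the same CTTTCC.

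Ribosomal protein messages have short 3′ untranslated regions and few matches to the microRNA itself. The mature strand, with its seed (bases 2 to 8) in capitals, lies at chr11:43374435-43374456 on the minus strand (GRCm38.p6).
mmu-miR-146a-5p: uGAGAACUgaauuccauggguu
The 7-base match to this seed, AGTTCTC, occurred in 3 of the 83 genes, searched over each gene's longest 3′ untranslated region (3.61%), where these regions had a median length of 152 bases. It occurred in 1538 of 12249 measured protein-coding genes (12.6%), with a median length of 1177 bases. The 3 genes were Rpl10, Rpl22 and Rps15a, with log2 ratios of -0.14, 0.06 and -0.26. The part of these matches in the ratios was not tested.

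In the large subunit, Rpl8, a protein beside the peptidyl transferase centre, was at 280 CPM in miR-146a-/- and 421 CPM in WT, from 4687 and 19625 counts. Its log2 ratio was -0.59 (-0.63 to -0.54), the lowest of the large subunit genes that are not paralog copies. Rpl9, near the site where translation factors bind, was at 237 CPM in miR-146a-/- and 334 CPM in WT, a ratio of -0.50 (-0.55 to -0.45). Rpl13, altered in a human skeletal dysplasia, followed at -0.44 (-0.48 to -0.40), and Rpl6 at -0.40 (-0.44 to -0.36).

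At the other end of the large subunit, Rpl21, altered in a human hair loss disorder, was at 863 CPM in miR-146a-/- and 652 CPM in WT, a log2 ratio of 0.41 (0.38 to 0.43). Rpl29, also known as a heparin-binding protein, was at 459 CPM in miR-146a-/- and 364 CPM in WT, a ratio of 0.34 (0.30 to 0.38). Rpl23a, which sits at the rim of the exit tunnel where the signal recognition particle docks, was at 584 CPM in miR-146a-/- and 464 CPM in WT, a ratio of 0.33 (0.30 to 0.37). All 3 intervals lay above 0 and above the intervals of Rpl8 and Rpl9. As these genes were named for lying at the ends of the range, that separation follows from the choice. Rpl19, part of a bridge to the small subunit, had a ratio of 0.25, Rpl36a, near the exit site for transfer RNA, 0.24, and Rpl18 0.17.

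The contrast between such genes can be read within each library, free of scaling. Rpl21 had 3.08 counts for each count of Rpl8 in miR-146a-/- and 1.55 in WT, a 1.99-fold difference. In the small subunit, Rps26 had 3.47 counts for each count of Rps2 in miR-146a-/- and 1.63 in WT, a 2.12-fold difference. These pairs join the genes at the ends of the range of ratios, so they show its width and not a typical pair.

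The P stalk, the flexible arm of Rplp0, Rplp1 and Rplp2 that recruits elongation factors, took shares of the large subunit whose intervals overlapped. Its genes held 10.4% of large subunit counts in miR-146a-/- (10.3 to 10.5%) and 10.5% in WT (10.4 to 10.5%). Within the stalk, Rplp0, its base, was at 890 CPM in miR-146a-/- and 1078 CPM in WT, a log2 ratio of -0.28 (-0.30 to -0.25). Rplp1 was at 774 CPM in miR-146a-/- and 724 CPM in WT, a ratio of 0.10 (0.07 to 0.13), and Rplp2 had a ratio of 0.02 (-0.04 to 0.08). Rplp1 had 0.869 counts for each count of Rplp0 in miR-146a-/- and 0.672 in WT.

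Rpl5 and Rpl11 join the small ribosomal RNA of the large subunit in one particle and, when free of ribosomes, bind the p53 regulator Mdm2. Rpl5 was at 388 CPM in miR-146a-/- and 425 CPM in WT, a log2 ratio of -0.13 (-0.17 to -0.09). Rpl11 was at 168 CPM in miR-146a-/- and 216 CPM in WT, a ratio of -0.36 (-0.42 to -0.30). Both were below 0 and their intervals did not overlap. Rpl4, which lines the exit tunnel, had the most counts of the family, at 1126 CPM in miR-146a-/- and 1280 CPM in WT, a ratio of -0.19 (-0.21 to -0.16).

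In the small subunit, Rps2, which lies at the messenger RNA entry channel, was at 250 CPM in miR-146a-/- and 388 CPM in WT, from 4188 and 18072 counts. Its log2 ratio was -0.63 (-0.68 to -0.58), so its interval reached just inside 1.5-fold. Rps19, the gene most often altered in Diamond-Blackfan anaemia, was at 188 CPM in miR-146a-/- and 278 CPM in WT, a ratio of -0.57 (-0.62 to -0.51). Rps27a, made as a fusion with ubiquitin, had a ratio of -0.56 (-0.63 to -0.50). Rps21 was at 95.7 CPM in miR-146a-/- and 138 CPM in WT, a ratio of -0.53 (-0.61 to -0.45).

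Rps26, which contacts the messenger RNA upstream of the start codon, was the highest of the small subunit at 868 CPM in miR-146a-/- and 633 CPM in WT, a log2 ratio of 0.45 (0.43 to 0.48). Rps24 was at 1032 CPM in miR-146a-/- and 842 CPM in WT, a ratio of 0.29 (0.27 to 0.32). Rps28, near the messenger RNA exit channel, had a ratio of 0.24 and Rps10, a target of ubiquitin on stalled ribosomes, 0.20. Rps6, the protein phosphorylated by S6 kinases downstream of mTORC1, was at 554 CPM in miR-146a-/- and 538 CPM in WT, a ratio of 0.04 (0.01 to 0.08). The other 28 small subunit genes had negative ratios.

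Rps14, whose human counterpart is haploinsufficient in a myelodysplastic syndrome with a chromosome deletion, was at 458 CPM in miR-146a-/- and 593 CPM in WT, a log2 ratio of -0.37 (-0.41 to -0.34). Rpsa, also known as the laminin receptor, was at 710 CPM in miR-146a-/- and 885 CPM in WT, a ratio of -0.32 (-0.35 to -0.29). Rps15 had a ratio of -0.14. Some ribosomal proteins have symbols outside the rule and are given beside it. Rack1, a signalling scaffold on the head of the small subunit, had a ratio of -0.41 (-0.44 to -0.37) and Fau, a ubiquitin-like fusion with a small subunit protein, -0.40 (-0.47 to -0.33).

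Several ribosomal proteins have a second gene, often restricted to certain tissues. The share of a copy within the pair, taken inside each library, was lower in miR-146a-/- for 4 of 8 pairs, with intervals apart. Rpl36al held 18.6% of the counts of Rpl36al plus Rpl36a in miR-146a-/- (17.6 to 19.7%) and 22.5% in WT (21.8 to 23.2%). Rpl7l1, related to a preribosome factor of yeast, held 12.9% of its pair with Rpl7 in miR-146a-/- (12.1 to 13.8%) and 14.7% in WT (14.3 to 15.2%). Rpl22l1 held 5.62% of its pair with Rpl22 in miR-146a-/- (5.004 to 6.28%) and 7.85% in WT (7.41 to 8.30%). Rps27l, a p53-responsive gene in human cells, held 5.07% of its pair with Rps27 in miR-146a-/- (4.42 to 5.78%) and 7.05% in WT (6.63 to 7.49%).

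Put as log2 ratios, which restate these shares, each copy was below its partner. In the pair of Rpl22, known for its part in early lymphocyte development, the copy had a log2 ratio of -0.46 (-0.65 to -0.27) and Rpl22 itself 0.06 (0.01 to 0.11). For Rpl36al the ratio was -0.11, beside 0.24 for its partner Rpl36a. Rpl7l1 had a ratio of -0.62 (-0.73 to -0.51) beside -0.40 for Rpl7, and Rps27l had -0.73 (-0.96 to -0.52), the lowest of the family, beside -0.23 for Rps27. Reads that match both genes of a pair may have been split or dropped in counting, so these shares are uncertain in absolute terms.

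**Figure D2:**
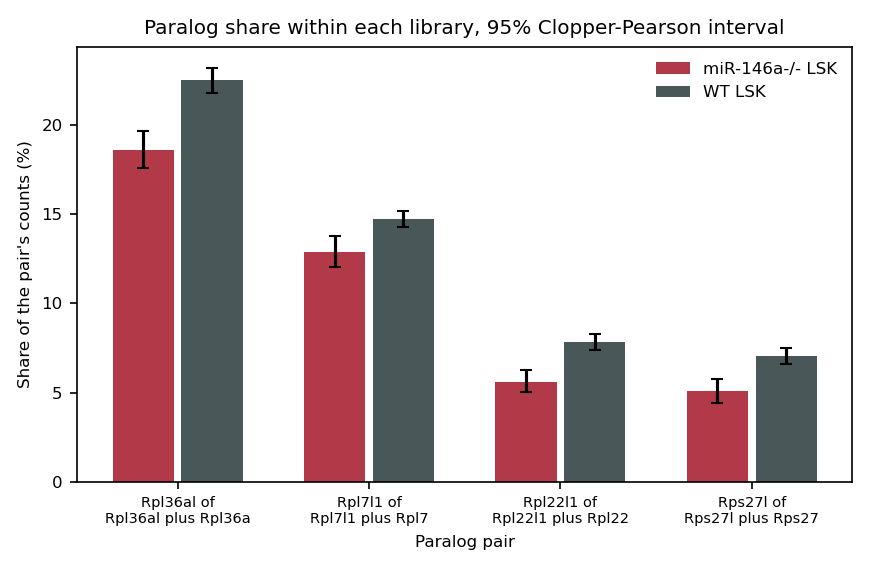
Share of the counts of each paralog pair held by the copy (y axis, percent) in miR-146a-/- LSK (left bar of each pair) and WT LSK (right bar), with 95% Clopper-Pearson intervals as error bars. The miR-146a-/- bar is the lower one in each of the 4 pairs, with Rpl36al at 18.6% in miR-146a-/- and 22.5% in WT.

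The remaining copies were at or near 0 in these cells. Rpl3l, a muscle gene, had 11 counts in miR-146a-/- and 12 in WT, just over the threshold, and its ratio of 1.30 (0.03 to 2.66) rests on these counts. It held 0.129% of its pair with Rpl3 in miR-146a-/- (0.0644 to 0.231%) and 0.0430% in WT (0.0222 to 0.0751%), and Rpl3 had a ratio of -0.23. Rps27rt had 12 counts in miR-146a-/- and 53 in WT, a ratio of -0.65 (-1.70 to 0.26), and its share of the pair with Rps27 overlapped between libraries, at 0.303% in miR-146a-/- and 0.409% in WT. Below the threshold, the testis gene Rpl39l had 0 counts in miR-146a-/-, which allows a share of up to 0.0916% of its pair with Rpl39, and 9 counts in WT, a share of 0.0796%. Rpl10l, another testis gene, had 0 counts in both libraries, which allows up to 0.0379% of its pair with Rpl10 in miR-146a-/- and 0.0124% in WT.

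Levels were compared between genes per kilobase of union exon length. Over the 77 measured genes that are not copies, the median was 184 CPM per kilobase in miR-146a-/- and 190 in WT. Rplp1 was the highest in both libraries, at 1551 CPM per kilobase in miR-146a-/- and 1450 in WT. It was followed by Rps15, near the decoding site, at 957 in miR-146a-/- and 1051 in WT, and by Rpl36, at 743 in miR-146a-/- and 783 in WT. Per kilobase of the longest coding transcript instead, the median was 366 CPM in miR-146a-/- and 419 in WT. On that length Rplp1 was again the highest, Rps26 came next in miR-146a-/- and Rps15 in WT, and Rpl36 ranked 7 in miR-146a-/- and 8 in WT, so the order of single genes depends on the length used. CPM before division by length was much alike in both libraries, with a Pearson correlation of 0.98 between log2 CPM over these 77 genes as a description. The points share gene length and mappability, and genes are not independent replicates.

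Ratio and level were only weakly related. The correlation of log2 ratio with mean log2 CPM was -0.03 (Pearson) and 0.33 (Spearman) over all 83 measured genes, and 0.19 and 0.32 over the 77 that are not copies, given as a description, since the ratio and the mean are made from the same counts. Rpl24, an outlier in level, had 56 counts in miR-146a-/- (3.25 CPM per kilobase) and 151 in WT (3.14 CPM per kilobase), and its ratio of 0.05 (-0.42 to 0.50) carried little weight. On the same strand Rpl24 is overlapped by Gm28037, which had 0 counts in both libraries. In all, 10 members were overlapped on the same strand and 24 on the other, and how such reads were assigned is not given in the sources used here.

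**Figure D3:**
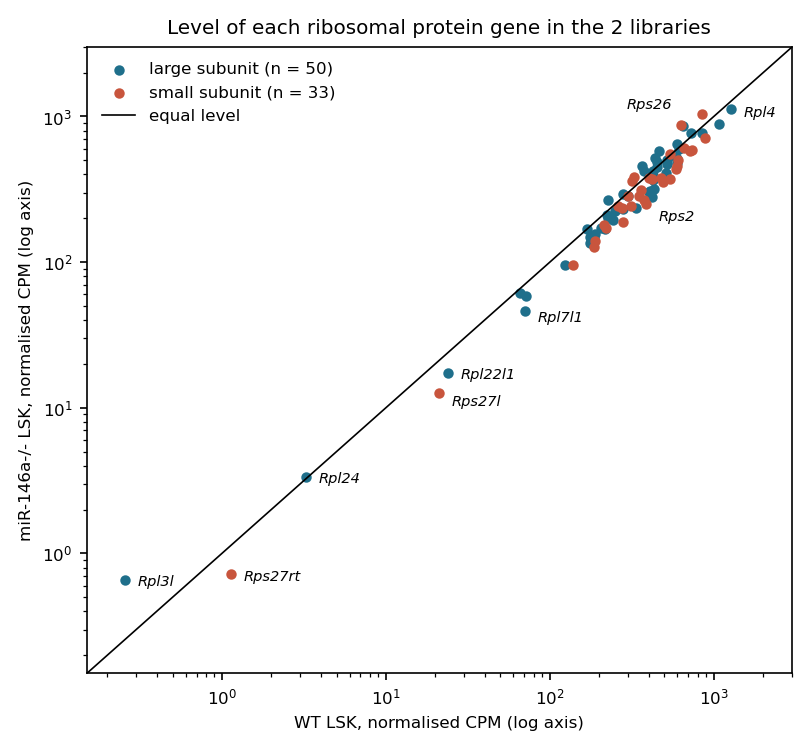
Normalised CPM of each measured ribosomal protein gene in the miR-146a-/- library (y axis, log scale) against the WT library (x axis, log scale), with large and small subunit genes in separate colours and a line at equal level. Most genes lie between 100 and 1000 CPM just under the line, and Rps26 lies above it while Rps2 lies below.

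Ribosomal protein transcripts are short, and short transcripts as a class were lower in the miR-146a-/- library. Of the 83 measured genes, 64 fell in the shortest 10% of protein-coding genes by longest coding transcript, which spans 102 to 1307 bases. In that class, ribosomal protein genes had a median log2 ratio of -0.27 with 76.6% negative, and the other 1168 genes had a median of -0.23 with 67.7% negative. Split by subunit, the medians there were -0.19 for 38 large subunit genes and -0.35 for 26 small subunit genes. In the longest 10% of protein-coding genes the median was 0.20. The 19 ribosomal protein genes outside the shortest class had a median of -0.17. Length here is that of the longest annotated coding transcript, for example 5179 bases for Rps15a, and the isoform expressed was not determined.

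After adjustment for a smooth trend on transcript length and GC content, the median of the ribosomal protein genes was -0.10, against -0.05 for protein-coding genes. By subunit it was -0.05 for the large and -0.22 for the small, so the difference between subunits was 0.16. Within the family, ratio and the length of the longest coding transcript were nearly unrelated. The Pearson correlation was 0.06 and the Spearman correlation 0.04 over 83 genes, given as a description. Over all 12313 protein-coding genes the same values were 0.16 and 0.23. The protein-coding share of all counts also differed, at 51.5% in miR-146a-/- and 81.4% in WT, and the part of transcript length or of that share in the result was not tested.

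**Figure D4:**
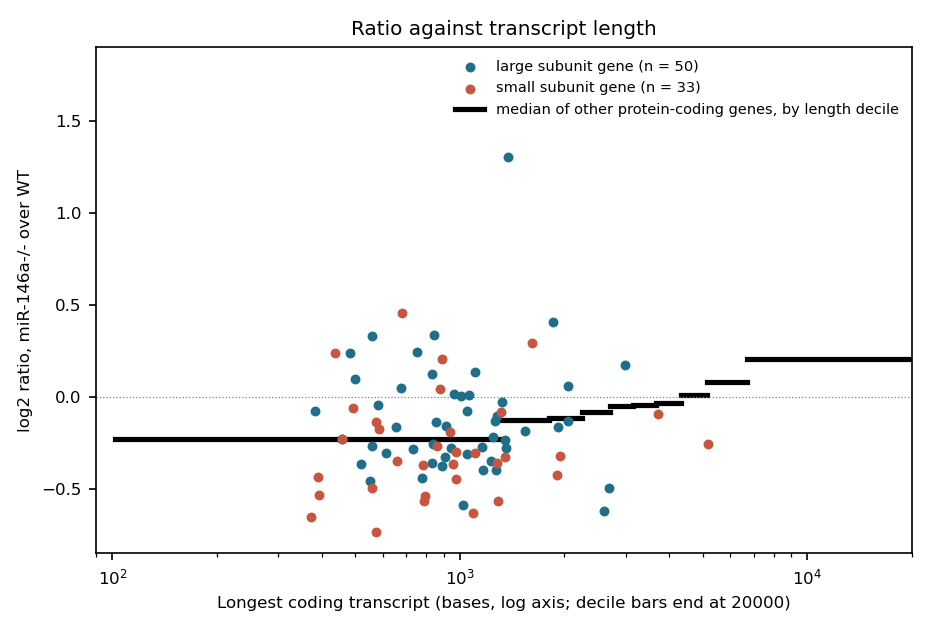
Log2 ratio of miR-146a-/- over WT (y axis) against the length of the longest coding transcript (x axis, bases, log scale), with points for large and small subunit genes and black bars for the median of the other protein-coding genes in each 10% class of length. The black bars climb with length, reaching 0.20 in the longest class, and most ribosomal protein genes scatter around or under the bar of the shortest class.

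Mitochondrial ribosomal proteins, which are encoded in the nucleus and build the ribosome of the mitochondrion, were lower still. Their 76 measured genes had a median log2 ratio of -0.49, with 74 negative and 2 positive. Beyond 1.5-fold, 7 were lower and 0 higher, against 1.53% lower and 5.35% higher over all measured genes. After the length and GC adjustment their median was -0.40, against -0.10 for the cytosolic family. Their median level was 12.5 CPM in miR-146a-/- and 17.2 CPM in WT, far below the cytosolic family's 310 CPM in miR-146a-/- and 375 CPM in WT.

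**Figure D5:**
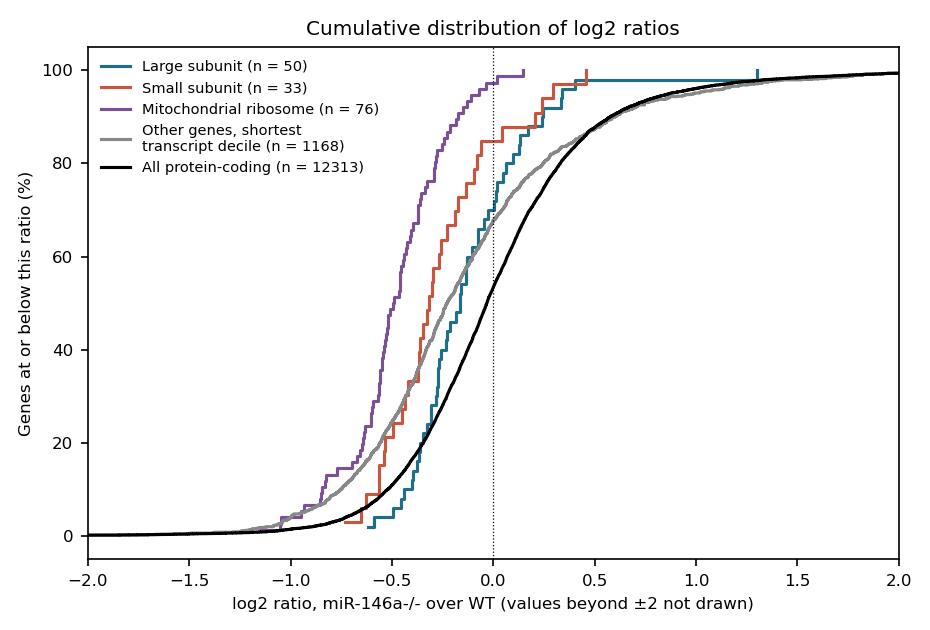
Cumulative share of genes (y axis, percent) at or below each log2 ratio of miR-146a-/- over WT (x axis) for the large subunit, the small subunit, mitochondrial ribosomal proteins, other genes with the shortest transcripts and all protein-coding genes. From left to right at the 50% level, the mitochondrial curve (-0.49) comes first and the small subunit (-0.32) next, before the other short genes (-0.23), the large subunit (-0.17) and all protein-coding genes (-0.03).

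The 20 ribosomal protein genes altered in Diamond-Blackfan anaemia had ratios on both sides of 0. Their median log2 ratio was -0.17, with 15 negative and 5 positive, and all 20 intervals excluded 0, as did those of 77 of the 83 measured ribosomal protein genes. The lowest were Rps19 (-0.57), Rps29 (-0.44) and Rpl35a (-0.37), and the highest were Rps26 (0.45), Rps24 (0.29) and Rps28 (0.24). Rps24 had 5.49 counts for each count of Rps19 in miR-146a-/- and 3.02 in WT, a 1.81-fold difference. Their summed level was 6256 CPM in miR-146a-/- and 6232 CPM in WT, with Rps24 and Rps26 the most abundant of the list.

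Of the X-linked members, Rpl39, which lines the exit tunnel, had a log2 ratio of -0.31 and Rps4x -0.30. Rpl10, which joins the large subunit late in its assembly, had -0.14, and Rpl36a had 0.24. Their median was -0.22, close to the -0.23 of the 79 autosomal members, and the 420 measured X-linked protein-coding genes had a median of 0.02. Xist, the RNA of the inactive X chromosome, had 49105 counts in miR-146a-/- and 10988 in WT, a ratio of 3.64. No label states the sex of the pooled animals, and sex and genotype cannot be told apart here.

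Many ribosomal protein genes carry small nucleolar RNAs in their introns. The 30 measured hosts had a median log2 ratio of -0.24 and the other 53 members -0.23. The small subunit hosts were all negative, 10 of 10, with a median of -0.31. Of small subunit genes without such RNAs, 18 of 23 were negative, with a median of -0.33. In the large subunit, 16 of 20 hosts were negative, with a median of -0.20. The large subunit genes without such RNAs were negative in 19 of 30, with a median of -0.14.

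Other translation genes with TOP messages had an unadjusted median between those of the ribosomal protein genes and of all measured genes. In a list of 22, it was -0.15 on the log2 scale, with 17 negative and 5 positive. By the 1.5-fold rule 0 were called, against 1.53% lower and 5.35% higher over all measured genes. After the length and GC adjustment the list had a median of -0.102, beside -0.096 for the ribosomal protein genes. The lowest were the elongation factor subunits Eef1g (-0.60) and Eef1b2 (-0.50), and Rack1. The highest were Hnrnpa1 (0.28), an RNA-binding protein, Eef1a1 (0.18), which delivers transfer RNAs, and Pabpc1 (0.17), the poly(A)-binding protein. Eef1a1 was by far the most abundant, at 9405 CPM in miR-146a-/- and 8317 CPM in WT.

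Of 18 regulators of TOP messages and of mTORC1, 0 were beyond 1.5-fold, against 1.53% lower and 5.35% higher over all measured genes. The median log2 ratio of these 18 was -0.04. Tial1 (-0.33) and Cnbp (-0.32), which bind TOP messages, and Eif4ebp1 (-0.30), a repressor of cap-dependent translation, were the lowest. Eif4ebp2 (0.46), a related repressor, Rps6kb2 (0.28), an S6 kinase, and Tsc1 (0.26), an inhibitor of mTORC1, were the highest. Larp1, the main repressor of TOP messages, had a ratio of -0.04 (-0.08 to 0.01), and Mtor 0.02 (-0.06 to 0.10). Both intervals covered 0 before adjustment. After the length and GC adjustment Larp1 was at -0.21 and Mtor at -0.22. The adjusted median of the list was -0.06, beside -0.05 for measured protein-coding genes.

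Dedicated chaperones and importins carry new ribosomal proteins to the nucleus. A list of 16 genes held these together with general chaperones of new proteins such as Hspa8, Naca and Btf3. Nap1l1, Naca and Btf3 were also in the list of TOP messages. Of the 16, 15 had negative ratios, with a median of -0.30. Beyond 1.5-fold, 1 was lower and 0 higher, against 1.53% lower and 5.35% higher over all measured genes. The lower gene was Grwd1, a chaperone of Rpl3, at 14.6 CPM in miR-146a-/- and 25.5 CPM in WT, a log2 ratio of -0.80 (-1.004 to -0.60). Heatr3, which imports Rpl5, followed at -0.60 (-0.75 to -0.46) and the importin Ipo5 at -0.47. The highest were Btf3 (0.07), Aamp (-0.01) and Tnpo1 (-0.05). Tsr2, which escorts Rps26, had a ratio of -0.32 while Rps26 itself was at 0.45. After the length and GC adjustment the list had a median of -0.29.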

How the data were processed

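The authors deposited whole-number read counts per Ensembl gene, without normalisation, for 1 miR-146a-/- and 1 WT library of total RNA depleted of ribosomal RNA, per the labels. Per the file headers, junction-aware alignments were used and duplicates were flagged. STAR 2.5.3a, Salmon 0.9.0 and mm10 are named in the submitters' processing notes. Which program counted reads, and whether by strand, is not stated there. Annotation was GENCODE M21 on the same assembly, which named 37693 of 39017 identifiers.

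Libraries were scaled with edgeR 4.0.16 (TMM, R 4.3.3), using genes with at least 20 summed counts. With 1 library per group no test could be run and no p-value is given. Log2 ratios used a prior count of 0.5 and exact 95% Clopper-Pearson intervals (Python 3.11.15, scipy 1.17.1). A count of 0 was given the limit of 3 counts. As there are no molecular identifiers, reads are not independent molecules. The calculation was tested on simulated data.

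Named genes were the 6 highest and 6 lowest ratios of each subunit with at least 200 counts, the 3 highest per kilobase, paralogs with partners, members under the threshold, X-linked members, the P stalk, Rpsa, Rack1, Fau, Rpl5, Rpl11, Rps14, Rps19 and the 3 highest and lowest of each context list. A few genes under this rule are left unreported. Others were chosen after their values were seen. The members and lists were chosen with earlier results of these data known. Alternatives were DESeq2 1.42.0 size factors, other scalings, filters, thresholds and priors, copies and paralogs left out, and adjustment for length and GC content.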

Additional observations from a re-analysis of the deposited data

How the results depend on the processing

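The median log2 ratio stayed negative for the family and for both subunits under every alternative run. For all members, the large subunit and the small subunit it was -1.05, -0.99 and -1.14 with total counts, -0.39, -0.33 and -0.48 with protein-coding totals, and -0.31, -0.23 and -0.39 with no count filter. It was -0.18, -0.12 and -0.27 as a mean, and -0.096, -0.053 and -0.22 once adjusted for transcript length and GC content. Negative values alone do not place these genes below others, because the median of all measured genes moved too. That median was -0.83 with total counts, -0.17 with protein-coding totals and -0.08 with no count filter. After the adjustment, measured protein-coding genes had a median of -0.051, close to that of the large subunit. Without members that another annotated gene overlaps, an alternative chosen after seeing the data, the small subunit was at -0.27 and large minus small at 0.11, and in all other alternatives that difference lay between 0.14 and 0.16. Leaving out Rpl24, also chosen after seeing the data, moved no median by more than its counting error. The number beyond 1.5-fold was 71 with total counts, 10 with protein-coding totals, 2 with no filter (Rpl8 and Rps2) and 1 after the adjustment (Rps26, higher). At 1.2-fold it was 35, and at 2-fold 0. Intervals wholly below 0 numbered 61, and between 47 and 82 across alternatives. Shares of all measured genes were taken for the main scaling only, so these counts have no background under the other settings. With total counts the median of all measured genes itself lay beyond 1.5-fold. The log2 ratio of the family's share was -0.30 of protein-coding counts and -0.96 of all counts. The cause of these shifts was not tested. Of 44 named genes, 30 kept their sign with total counts and 40 with protein-coding totals, as did 40 after the adjustment. No replicate could be left out, with 1 library per genotype. No paired analysis was possible because each genotype had 1 library and the labels give no replicate numbers. Depth limits Rpl3l, Rps27rt and Rpl24, whose intervals are wide.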
